A study of Mus musculus with 102 samples.

Results

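The neurotrophins and their receptors were followed by the probe sets of 5 mouse genes, *Bdnf*, *Ntf3*, *Ntrk2*, *Ntrk3* and *Ngfr*, in 51 punched-out regions of the brain, spinal cord, eye and nearby glands of adult mice, with 2 Affymetrix GeneChip arrays per region. The array annotation paired 4 of the 5 genes with 21 probe sets, of 45037 probe sets and 18193 genes in all: 2 for *Bdnf*, 8 for *Ntrk2*, 8 for *Ntrk3* and 3 for *Ngfr*. It named no probe set for *Ntf3*, which was not analysed here. For each gene the probe set with the highest mean over 48 regions, without retina, pituitary and pineal, carries the results, and the others served as a check. All mice were male Balb/c animals of 7 to 8 weeks with no genetic change and no drug, adapted to a 12 h light/dark cycle before sampling. The labels name light/dark and constant darkness as sampling conditions without saying which holds for a given sample. Each region was punched out bilaterally from frozen slices, tissue taken every 4 h over 1 day was pooled, and the whole sampling was done independently 2 times. The groups are therefore the regions, which differ in where the punch was taken and, for some, in the days of sampling, and the p-values below measure the spread between 2 pools of many mice. Whether the punches of different regions came from the same mice is not given in the sources used here.

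Neurotrophins are secreted growth factors that keep neurons alive during development and tune synapses in the adult. BDNF, the product of *Bdnf*, acts through the receptor tyrosine kinase TrkB (*Ntrk2*), NT-3 (*Ntf3*) acts mainly through TrkC (*Ntrk3*), and all neurotrophins and their uncleaved pro-forms also bind p75NTR, the product of *Ngfr*, a receptor best known in the adult forebrain from cholinergic neurons. *Ntrk2* and *Ntrk3* each give full-length receptors and truncated forms without the kinase domain, and the truncated TrkB form is known as a major product of astrocytes, whereas *Bdnf* has several alternative first exons under separate promoters. The files do not say which of these transcripts a probe set reads.

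The start windows of the genes on which the results turn are shown for the region that would control each transcript, as the 250 bases before a RefSeq start on the GRCm38.p6 build. RefSeq gave 7 such windows for *Bdnf*, 2 for *Ntf3*, 1 for *Ntrk2*, 1 for *Ngfr* and none for *Ntrk3*. A short list of motifs was searched for on both strands, and matches are in capitals: the cAMP response element palindrome TGACGTCA, its variant TCACGTCA, the E-box CACGTG, the GC box GGGCGG and the TATA box TATAAA.
*Bdnf*, window 3 of 7, chr2:109692186-109692435, plus strand: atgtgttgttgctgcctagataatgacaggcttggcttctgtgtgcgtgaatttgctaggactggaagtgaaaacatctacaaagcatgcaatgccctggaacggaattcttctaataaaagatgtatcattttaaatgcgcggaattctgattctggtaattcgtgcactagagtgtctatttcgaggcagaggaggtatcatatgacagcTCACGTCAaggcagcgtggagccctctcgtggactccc
*Ntrk2*, chr13:58806319-58806568, plus strand: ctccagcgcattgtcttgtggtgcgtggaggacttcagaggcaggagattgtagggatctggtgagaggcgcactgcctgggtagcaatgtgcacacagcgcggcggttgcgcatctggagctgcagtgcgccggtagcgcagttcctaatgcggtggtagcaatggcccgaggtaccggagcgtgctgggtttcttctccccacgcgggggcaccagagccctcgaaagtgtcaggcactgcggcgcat
*Ngfr*, chr11:95587699-95587948, minus strand: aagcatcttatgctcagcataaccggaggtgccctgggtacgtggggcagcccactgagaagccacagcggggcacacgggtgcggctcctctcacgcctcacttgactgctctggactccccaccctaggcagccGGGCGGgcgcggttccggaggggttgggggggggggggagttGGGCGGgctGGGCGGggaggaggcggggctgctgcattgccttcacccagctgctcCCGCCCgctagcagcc
The variant TCACGTCA stood in 1 of the 7 *Bdnf* windows, the one printed, and in 0.353% of 32536 windows of all genes. No *Bdnf* window held the palindrome (1.56% of all windows), the E-box (6.04%) or the TATA box (12.3%). The GC box stood in *Bdnf* windows 2 (2 matches) and 4 (1 match), which are not printed. Of the *Ntf3* windows, 1 and 2 held 1 GC box each, and window 2 also held 1 E-box. The *Ngfr* window held 4 GC boxes, a motif present in 33.0% of all windows, and the *Ntrk2* window held no match to any motif of the list. Bases G and C made up 45.6% of the printed *Bdnf* window, 62.8% of the *Ntrk2* window and 70.4% of the *Ngfr* window.

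All values are log2 RMA expression levels, on which a difference of 1 is a 2-fold difference, and a level of one probe set cannot be set against that of another. The median over all probe sets lay between 7.32 and 7.46 on every array, and no 2 arrays held identical values. Of 34 measured marker genes listed for the labelled regions, 33 were above the median of the other regions where they should be and 24 were highest there. The exception was *Pcp4*, a calmodulin-binding protein gene, at 11.72 in CA2/CA3 against a median of 12.18 elsewhere. *Nr5a1*, a defining transcription factor of the ventromedial hypothalamic nucleus (VMH), was at 8.49 in VMH and at 9.22 in the dorsal subparaventricular zone (SPa dorsal), whereas *Fezf1*, the other listed VMH marker, was highest in VMH at 9.49, against 9.07 in SPa dorsal.

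*Bdnf*, the ligand gene, was highest in the hippocampus and piriform cortex and lowest in the median eminence, the medial caudate putamen and the arcuate nucleus. On the main probe set (1422169_a_at) the 2 arrays of the dentate gyrus (DG) read 9.11 and 9.28, those of piriform cortex (Pir) 8.88 and 9.08, and those of CA1 8.84 and 9.09. The median eminence (ME) read 7.92 and 7.67 and the medial caudate putamen (CPu medial) 7.90 and 7.85. Every array of these 3 high regions thus lay above every array of these 2 low ones. Against the mean of the other 47 regions DG was higher by 0.86 ± 0.10 (SE, limma, adjusted p = 2.3e-10), Pir by 0.64 (5.4e-07) and CA1 by 0.62 (6.8e-07), and ME was at -0.58 (2.6e-06). In all, 11 regions were above the other 47 and 12 below, while 25 did not pass the test. Over all probe sets 13.9% of such comparisons were called higher and 14.7% lower. Of the 23 calls, 8 held without either array; in cingulate cortex (8.68 and 9.06) the difference of 0.52 became 0.33 (adjusted p = 0.08) without replicate 2, and in the arcuate nucleus (Arc, 8.06 and 7.75) that of -0.46 became -0.30 (adjusted p = 0.14) without replicate 2. In bulk tissue, fewer cells of a type and less RNA per cell cannot be told apart.

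From highest to lowest the regional means spanned 1.40 log2 units (2.64-fold), the median region stood at 8.31, and 2 of the 47 pairs of neighbours in the order had arrays that did not overlap, against 4.64% of neighbour pairs over all probe sets. The share of non-overlapping neighbours was thus near that of all probe sets.

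The other *Bdnf* probe set (1422168_a_at) spread the same gene over a far wider range, 3.86 log2 units (14.5-fold), with DG again highest at 9.78 and 9.62. The olfactory tubercle (Tu) was lowest at 5.78 and 5.90, near the globus pallidus (GP) at 6.21 and 5.48 and CPu medial at 5.91 and 5.82. On it 17 regions were above and 19 below the other 47, and 9 of 47 neighbour pairs did not overlap. Over the 48 regions the 2 probe sets had a Pearson r of 0.81. Their calls differed, among other regions, in the ventral tegmental area and VMH. The ventral tegmental area (VTA) read 9.40 and 9.28 on this probe set and was higher by 1.83, while on the main one it read 8.71 and 8.44 and did not pass the test (adjusted p = 0.098). VMH read 9.04 and 9.30, higher by 1.66 (adjusted p = 5.3e-12), while on the main probe set it read 8.44 and 8.30 (adjusted p = 0.94). In the mammillary body the arrays of this probe set differed by more, at 8.74 and 9.64.

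**Figure D1:**
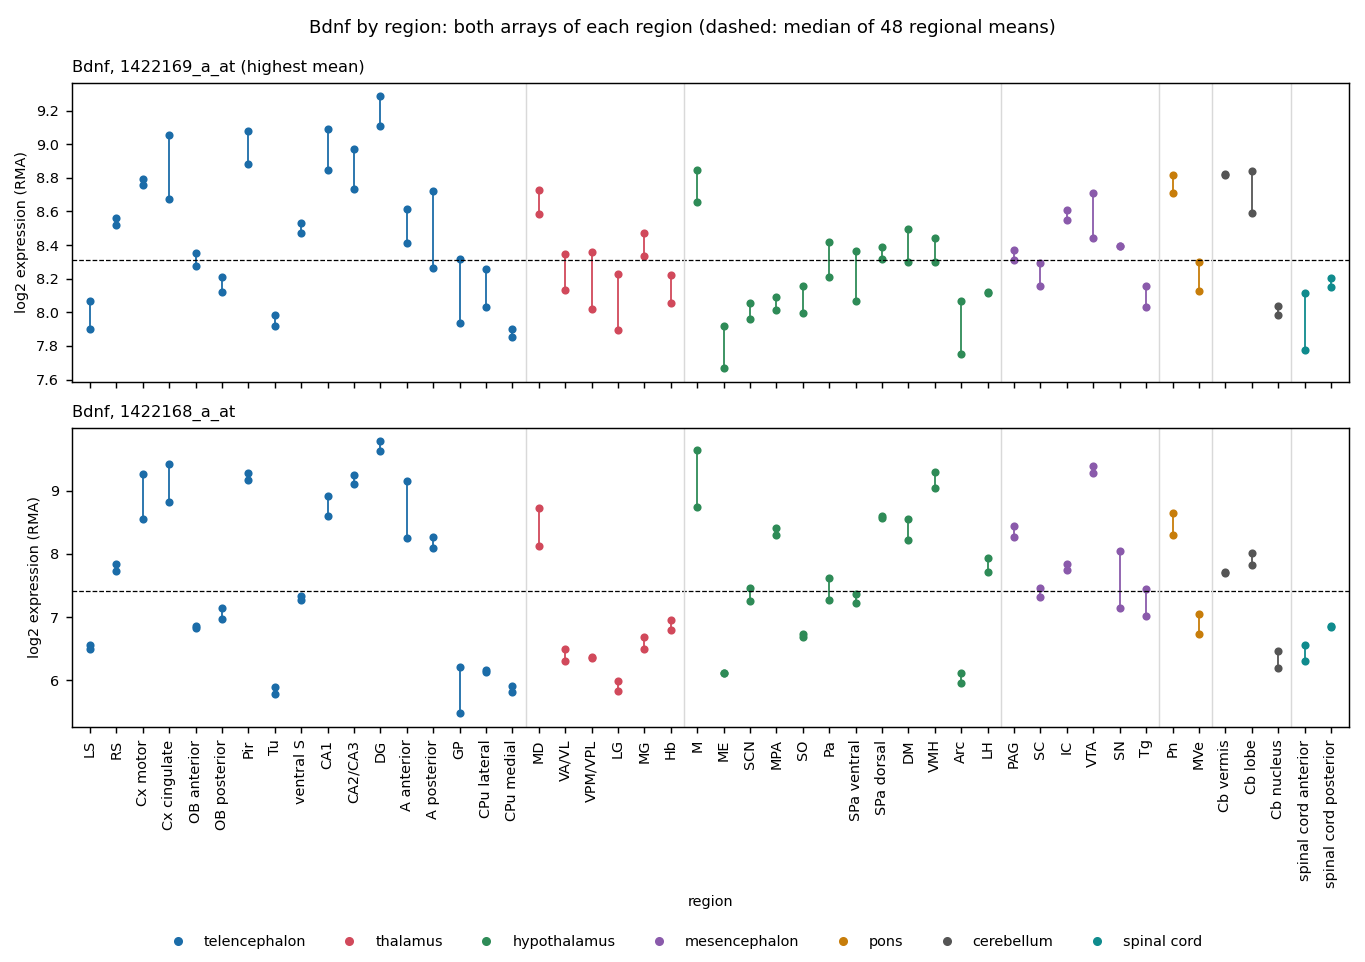
Log2 RMA level of *Bdnf* on its 2 probe sets in each of the 48 regions, grouped by anatomical division, with 1 point per array, colour for the division and a dashed line at the median of the regional means. DG is highest on both probe sets, and the regional means span 1.40 log2 units on the main probe set and 3.86 on the other.

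*Ntrk2*, the TrkB gene, was highest in the hypothalamus and olfactory bulb and lowest in cerebellar cortex and caudate putamen on its main probe set (1420838_at). ME read 12.79 and 13.07, Arc 12.61 and 12.61 and the suprachiasmatic nucleus (SCN) 12.54 and 12.44. The lobe of the cerebellar cortex (Cb lobe) read 11.13 and 10.97, CPu medial 11.18 and 11.06 and DG 11.14 and 11.10. The high and the low regions did not overlap on any array. ME was higher than the other 47 regions by 1.20 ± 0.07 (SE, limma, adjusted p = 3.7e-21), Arc by 0.88 (3.0e-15) and SCN by 0.75 (5.1e-13), and Cb lobe fell by 0.72 (1.3e-12). In all 13 regions were above and 17 below, and 20 of these 30 calls held without either array. The hypothalamic regions had a median of 12.17, from the lateral hypothalamus (LH) at 11.78 to ME at 12.93, against 11.45 for the telencephalon and 11.64 for the thalamus. Markers of other cells moved with the 2 highest regions: in ME 8 of 8 leptomeningeal, 5 of 5 tanycyte and 5 of 7 anterior pituitary markers were above the other 47 regions (21.4% of all probe sets) and 9 of 9 neuron markers below (20.4%). In Arc 7 of 8 leptomeningeal and 4 of 5 tanycyte markers were above (16%) and 9 of 9 neuron markers below (13.1%). Ependymal and microglia markers were also above in ME (6 of 7 and 5 of 8) and in Arc (2 of 7 and 5 of 8). The tanycyte list was not particular to these regions, with 3 of 5 above in cingulate cortex and in the posterior amygdala. Over the 48 regions its Pearson r was between -0.25 and -0.10 with *Ntrk2* 1420838_at, 1435196_at and 1420837_at. The part of these lists in the *Ntrk2* level was not tested.

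The 8 *Ntrk2* probe sets did not tell one story. The probe sets 1435196_at and 1420837_at followed the main one over the 48 regions (Pearson r 0.89 each, and 0.84 with each other), with ME (12.68 and 12.75) and Arc, respectively, as their highest region. Probe sets 1458622_at, 1437560_at and 1435305_at followed each other (r from 0.77 to 0.92) and had r between -0.29 and 0.01 with the first 3. On 1458622_at, CA1 was highest at 12.12 and 12.06, higher than the other 47 regions by 1.07 (limma, adjusted p = 7.1e-13), followed by the dorsomedial hypothalamic nucleus (DM) at 12.02 and 11.83 and the lateral septal nucleus (LS) at 11.84 and 11.74. The habenular nucleus (Hb) was lowest at 10.05 and 9.98 and fell by 1.04 (3.9e-12), followed by the cerebellar nucleus at 10.02 and 10.15. The supraoptic nucleus (SO) was next at 10.02 and 10.20 and was the lowest region of 1435305_at, at 8.59 and 8.81. LS was highest on 1437560_at at 11.64 and 11.40, and motor cortex on 1435305_at at 11.06 and 10.90. ME, the highest region of the main probe set, was not called against the other hypothalamic regions on 1458622_at (difference -0.20, adjusted p = 0.15). Of the remaining 2 probe sets, 1446712_at was also highest in ME, with a range of 1.23, and 1444121_at spanned no more than 0.40 with a replicate r of 0.38.

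**Figure D2:**
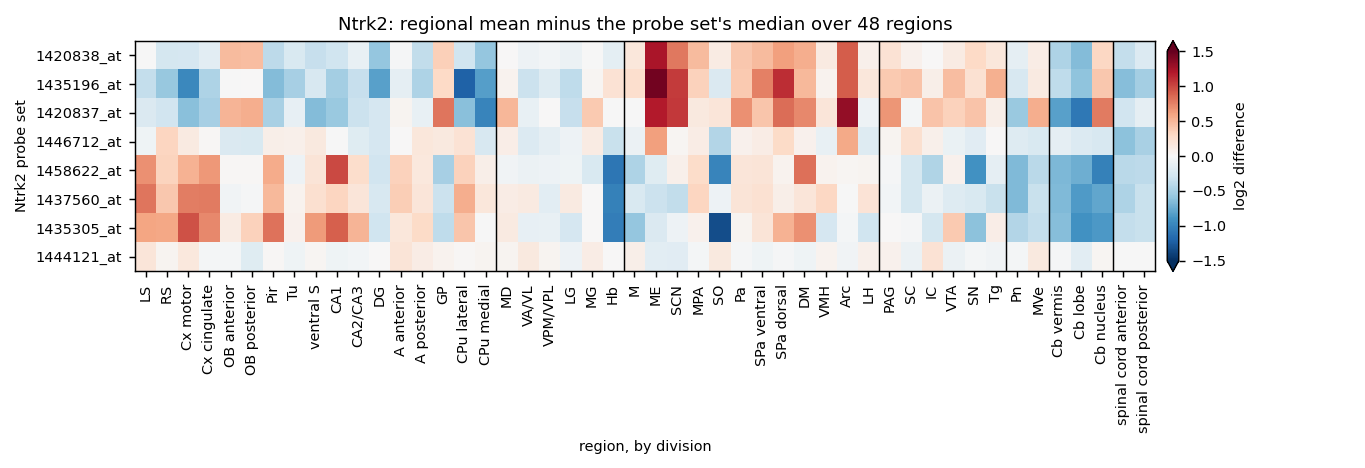
Heat map of the 8 *Ntrk2* probe sets (rows) in 48 regions (columns), as the regional mean log2 level minus the probe set's median over the regions, on a colour scale from -1.5 to 1.5. ME, Arc and SCN are high on the upper 3 rows, whereas CA1 and LS are high on 1458622_at, 1437560_at and 1435305_at.

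*Ntrk3*, the TrkC gene, was lowest by far in the thalamic relay nuclei, and highest in cingulate cortex, DG, caudate putamen and cerebellar cortex. On the main probe set (1433825_at) the ventral anterior and ventrolateral nuclei (VA/VL) read 8.52 and 8.31, the ventral posterior nuclei (VPM/VPL) 8.84 and 8.28, and the lateral geniculate body (LG) 8.82 and 8.89. Cingulate cortex read 10.60 and 10.85, DG 10.77 and 10.63 and CPu medial 10.92 and 10.47. No array of the 3 thalamic regions came within 1 log2 unit of these 3 high regions. VA/VL fell by 1.57 ± 0.10 (SE, limma, adjusted p = 1.7e-19) relative to the other 47 regions. The difference was -1.42 for VPM/VPL (9.3e-18), -1.12 for LG (1.2e-13), -0.97 for the mediodorsal nucleus (9.10 and 8.90) and -0.79 for the medial geniculate nucleus (8.88 and 9.48). Hb, which is counted to the thalamus as well, read 9.63 and 9.81. Cingulate cortex was higher by 0.79 (4.7e-09), and in all 13 regions were above and 10 below, with 15 of the 23 calls holding without either array. The range was 2.31 log2 units (4.96-fold).

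VA/VL was also the lowest region of *Ntrk3* probe sets 1422329_a_at (6.82 and 7.31), 1455917_at (5.37 and 6.08) and 1447723_at (4.82 and 5.83). VPM/VPL was the lowest of 1425071_s_at. The highest region varied more, being DG, the vermis of the cerebellar cortex (Cb vermis), the lateral caudate putamen (9.24 and 9.33) and CA1, respectively. The ranges of 1455917_at and 1447723_at were the widest of the 21 probe sets, 4.07 and 3.96 log2 units (16.7- and 15.6-fold). These 4 and 1425070_at, which was lowest in the pontine nucleus, had r between 0.71 and 0.88 with the main probe set, while 1443970_at and 1426003_at varied by 0.61 and 0.53. Regional differences passed the limma F test for each of the 21 probe sets except 1426003_at (adjusted p = 0.11), as they did for 91.1% of all probe sets. In VA/VL and VPM/VPL 10 of 10 oligodendrocyte markers were above the other regions (median differences 1.41 and 1.59), as were 6 of 9 neuron markers, with 1 below, against 11.8% and 11.3% of all probe sets, and their part in the low *Ntrk3* level was not tested.

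*Ngfr*, the p75NTR gene, stood out in the globus pallidus and in 2 hypothalamic regions. On the main probe set (1454903_at) GP read 8.88 and 8.24, LH 8.78 and 8.25 and SO 8.51 and 8.52, against a median region of 7.83. The ventral subparaventricular zone was lowest at 7.27 and 7.44. All 6 arrays of GP, LH and SO were above every array of the remaining regions. GP was higher by 0.73 ± 0.09 (SE, limma, adjusted p = 1.0e-08), LH by 0.68 (7.0e-08) and SO by 0.68 (9.7e-09), and the ventral subparaventricular zone fell by 0.50 (1.7e-05). Without replicate 1 the difference of GP was 0.41 (adjusted p = 0.016) and that of LH 0.42 (0.015), as replicate 1 was the higher array in both. Counting the others, 6 regions were above and 8 below, but these 4 were the calls that held without either array. The range was 1.21 log2 units (2.31-fold). Probe set 1450177_at had the same 3 regions on top, SO at 6.49 and 6.65, GP at 6.91 and 6.21 and LH at 6.70 and 6.28 (r = 0.86 with the main probe set). Probe set 1421241_at called SO (6.34 and 6.46, difference 0.57, adjusted p = 3.7e-07) but neither GP (6.10 and 6.01, adjusted p = 0.080) nor LH (6.11 and 5.99, 0.11).

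Some but not all genes of cholinergic neurons were above the other regions in GP, LH and SO. *Lhx8*, a transcription factor of developing forebrain cholinergic neurons, read 9.12 and 8.63 in GP and 9.69 and 8.98 in LH, but 5.62 and 6.82 in SO, against a median region of 4.71. *Slc18a3*, the vesicular acetylcholine transporter gene, read 7.89 and 6.87 in GP, 6.81 and 6.15 in LH and 6.12 and 6.69 in SO, against 5.70. Replicate 1, with the higher *Ngfr* level in both GP and LH, had the higher level of 6 of the 6 cholinergic markers in GP. In LH it had the higher level of 3 of the 6, *Lhx8*, *Slc18a3* and *Slc5a7* (6.99 and 6.50, median region 6.15). The LH markers not higher in replicate 1 were *Chat*, *Gbx1* (7.47 and 7.49, median region 6.84) and *Zic4* (7.82 and 7.98, median region 7.81). In SO replicate 1 had the higher level of 1 of the 6 markers, and in Hb of 3 of the 6. The share of all probe sets higher in replicate 1 was not computed, so these counts have no background to be read against. *Chat*, the acetylcholine-synthesising enzyme gene, was near its median region of 7.61, with 7.89 and 7.76 in GP, 7.56 and 7.77 in LH and 7.53 and 7.83 in SO. Of the 6 cholinergic markers 4 were above the other 47 regions in GP (8.31% of all probe sets), 3 in LH (9.17%) and 4 in SO (20.9%). Hb, where *Slc18a3* was at 10.23 and 9.51 and *Chat* at 9.35 and 9.26, had *Ngfr* at 7.63 and 7.66. In SO 8 of 8 leptomeningeal markers (median difference 2.63) and 8 of 8 endothelial markers (0.99) were also above the other regions and 9 of 9 neuron markers below (20.3% of all probe sets). Oligodendrocyte markers were above in GP (10 of 10, median difference 1.25), LH (10 of 10, 0.62) and SO (10 of 10, 1.63). They were above in SCN too (10 of 10, 1.69, against 22.5% of all probe sets). Of the 8 microglia markers 8 were above in GP (1.21), 8 in SO (0.72) and 0 in LH. The part of these lists in the *Ngfr* level was not tested.

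**Figure D3:**
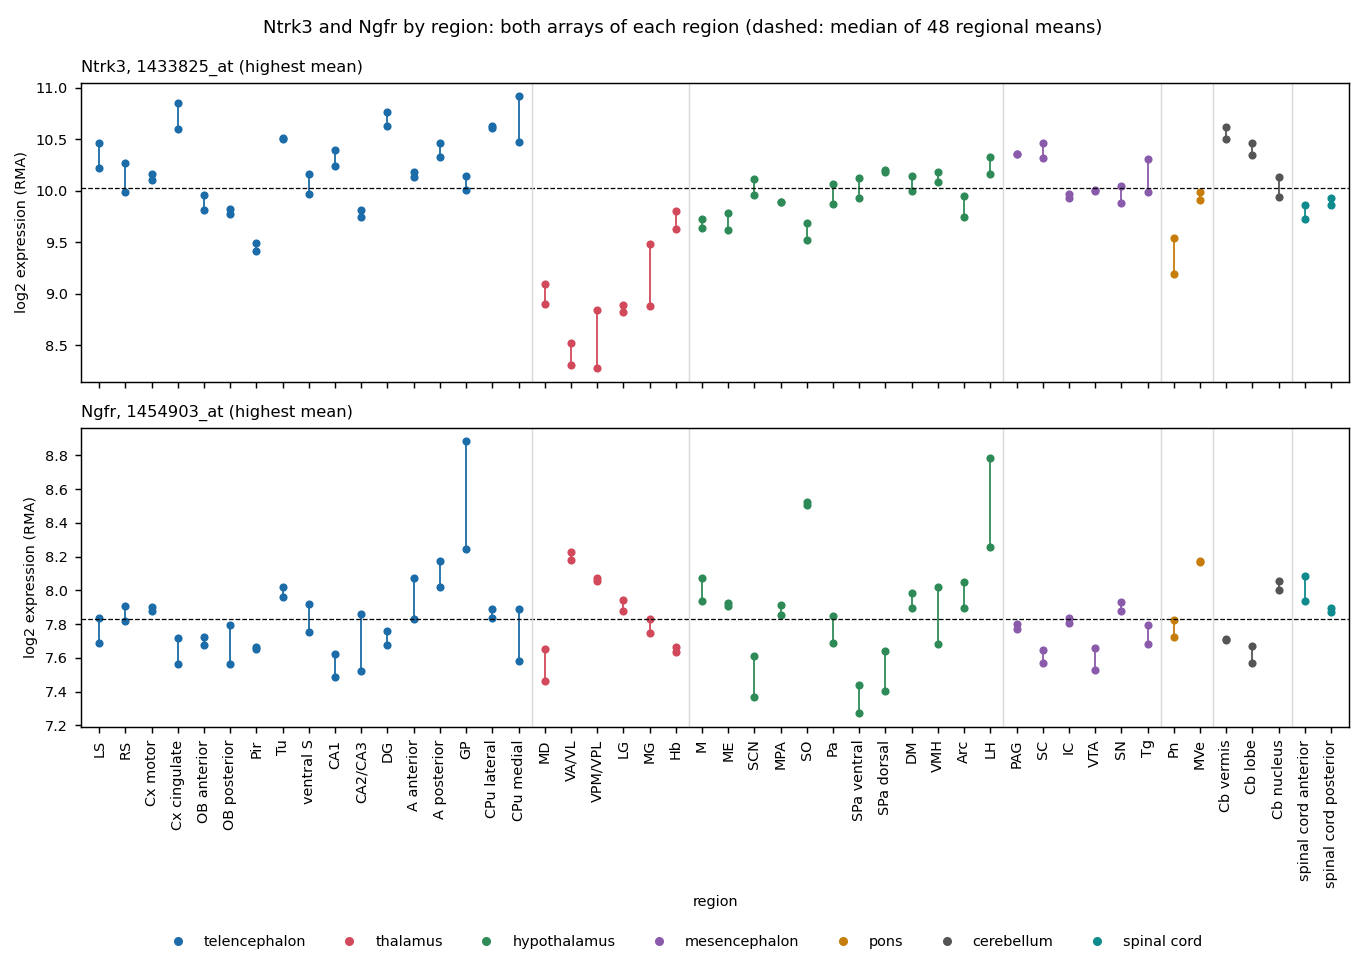
Log2 RMA level of *Ntrk3* (1433825_at) and *Ngfr* (1454903_at) in each of the 48 regions, grouped by anatomical division, with 1 point per array, colour for the division and a dashed line at the median of the regional means. The thalamic nuclei VA/VL, VPM/VPL and LG are lowest for *Ntrk3*, and GP, LH and SO lie above the rest for *Ngfr*.

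Between the cortex and the structures it projects to, *Bdnf* was the member with the largest difference from caudate putamen and *Ntrk3* the one with the largest difference from thalamus. In the 6 arrays of neocortex (motor, cingulate and retrosplenial) *Bdnf* ran from 8.52 over a median of 8.72 to 9.06, and in the 4 arrays of caudate putamen from 7.85 to 8.26, with no overlap (14.2% of all probe sets did not overlap here). Neocortex was higher by 0.72 ± 0.09 (SE, 1.64-fold, limma, adjusted p = 1.7e-09), and by 2.59 ± 0.15 (6.04-fold, 5.3e-22) on the other *Bdnf* probe set. The comparison called 29.8% of all probe sets. In neocortex 8 of 9 neuron markers were higher (median difference 0.75, 15.5% of all probe sets) and 10 of 10 oligodendrocyte markers lower (-0.54, 14.3%), and their part was not tested. *Ntrk2* was higher in neocortex by 0.22 (adjusted p = 0.0061) and *Ntrk3* lower, with a difference of -0.33 (0.0034), both with overlapping arrays. Neither held when arrays were left out: *Ntrk2* was at 0.15 (adjusted p = 0.095) without replicate 1 of neocortex and at 0.12 (0.34) without replicate 2 of caudate putamen, and *Ntrk3* at -0.25 (0.076) without replicate 1 of neocortex and at -0.21 (0.18) without replicate 1 of caudate putamen. *Ngfr* differed by -0.00 (interval of the difference -0.17 to 0.16, adjusted p = 0.99). Among regions of 1 sampling period the *Bdnf* difference was 0.81 and that of *Ntrk3* -0.23 (adjusted p = 0.092).

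In the 10 arrays of 5 thalamic nuclei, without Hb, *Ntrk3* ran from 8.28 over a median of 8.86 to 9.48, and in neocortex from 9.99 over 10.22 to 10.85, with no overlap (8.81% of all probe sets did not overlap). It was 2.88-fold lower in thalamus, a difference of -1.53 ± 0.07 (SE, limma, adjusted p = 6.9e-26), and 6 further *Ntrk3* probe sets were called in the same direction, from 1447723_at at -2.16 to 1443970_at at -0.17 (adjusted p = 0.044). This comparison called 33.9% of all probe sets. In thalamus 10 of 10 oligodendrocyte markers were higher (median difference 1.79, 17% of all probe sets) and 10 of 12 immediate early genes lower (-0.77, 16.9%), and their part was not tested. *Bdnf* fell by 0.42 (2.7e-06), with -1.86 (3.8e-20) on the other probe set. *Ntrk2* was higher by 0.18 on the main probe set (0.0037, but 0.12 with adjusted p = 0.14 without replicate 2 of neocortex), higher by 0.50 on 1435196_at (1.9e-09) and lower on 1458622_at (-0.60, 1.1e-09). *Ngfr* differed by 0.11 (0.23). Within sampling periods the differences were -1.51 for *Ntrk3*, -0.40 for *Bdnf* and 0.19 for *Ntrk2*.

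GP and caudate putamen, successive stations of the basal ganglia, differed in all 3 receptor genes. *Ngfr* ran from 7.58 to 7.89 in the 4 arrays of caudate putamen, below both GP arrays (8.88 and 8.24), and was higher in GP by 0.76 ± 0.11 (SE, 1.70-fold, limma, adjusted p = 1.4e-07). *Ntrk2* was higher by 0.80 ± 0.09 (6.0e-11) and *Ntrk3* lower (-0.58 ± 0.12, 1.4e-04), each without overlap, as were 36.2% of all probe sets, and 27.1% were called. The *Ntrk2* probe sets went opposite ways: GP was higher by 1.32 on 1435196_at and by 1.61 on 1420837_at, whereas the difference was -0.72 on 1458622_at (8.1e-06), -0.68 on 1437560_at and -0.58 on 1435305_at, all called. *Bdnf* did not pass the test (0.12, adjusted p = 0.54, and -0.16 on the other probe set). GP and caudate putamen were sampled in different periods, so period and region cannot be told apart. In GP 9 of 10 oligodendrocyte, 8 of 12 astrocyte and 8 of 8 microglia markers were higher than in caudate putamen (median differences 1.25, 0.79 and 0.89, against 13% of all probe sets higher), and their part in these differences was not tested.

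Within the hippocampus, DG had more *Ntrk3* and less *Ntrk2* than Ammon's horn (CA1 and CA2/CA3) on the main probe sets. *Ntrk3* read 10.77 and 10.63 in DG and from 9.75 to 10.39 in the 4 arrays of Ammon's horn, higher by 0.65 ± 0.12 (SE, limma, adjusted p = 2.9e-05), although 1422329_a_at (0.32) and 1447723_at (0.13) did not pass the test. On 1455917_at, 1425071_s_at, 1443970_at and 1425070_at the regional mean of CA1 was the highest of the telencephalon, above that of DG. *Ntrk2* fell by 0.38 (5.0e-04) on the main probe set, with -0.91 (7.1e-08) on 1458622_at. These main probe sets did not overlap, like 37.2% of all probe sets, and 27.1% were called. Of the marker lists, 10 of 10 oligodendrocyte and 6 of 7 choroid plexus markers were lower in DG (median differences -1.36 and -1.35, against 15.3% of all probe sets lower), and their part was not tested. *Bdnf* was higher in DG on both arrays, but by 0.29 (adjusted p = 0.071) on the main and 0.74 (0.0038) on the other probe set. DG and Ammon's horn were sampled in different periods, which cannot be told apart from the region.

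Compared with neocortex, the 3 hippocampal fields together had more *Bdnf*, by 0.28 ± 0.08 (SE, limma, adjusted p = 0.0055) and by 0.61 (2.4e-04) on the other probe set, in a comparison that called 29.5% of all probe sets. The 6 hippocampal arrays ran from 8.73 over 9.03 to 9.28 and overlapped with those of neocortex. The difference was 0.25 (adjusted p = 0.061) without replicate 2 of the hippocampal fields and 0.23 (0.098) without replicate 1 of neocortex. *Ntrk2* (-0.10, 0.19), *Ntrk3* (-0.07, 0.61) and *Ngfr* (-0.14, 0.14) were not called. In DG against retrosplenial cortex, the pair of 1 sampling period, *Bdnf* was higher by 0.66 (2.6e-04) and *Ntrk3* by 0.57 (0.0018), so the sign of *Ntrk3* turned. Retrosplenial cortex against motor and cingulate cortex called none of the 4 main probe sets and 8.61% of all probe sets; *Bdnf* was at -0.28 (0.16), and at -1.23 ± 0.20 (1.4e-05) on the other probe set, where retrosplenial cortex read 7.72 to 7.84 and the other 4 arrays 8.54 to 9.42, without overlap (21.8% of all probe sets). The periods of these regions differed too.

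In the cerebellar cortex (vermis and lobe) *Bdnf* and *Ntrk3* were higher and *Ntrk2* lower than in the other 46 regions on the main probe sets. *Ntrk2* ran from 10.97 to 11.26 in the 4 arrays, against 11.06 over 11.72 to 13.07 elsewhere, and fell by 0.63 ± 0.05 (SE, limma, adjusted p = 3.3e-16). *Bdnf* ran from 8.59 to 8.84, against 7.67 over 8.30 to 9.28, and was higher by 0.43 ± 0.07 (7.3e-07). On the other *Bdnf* probe set Cb vermis was at 7.71 and Cb lobe at 7.92, against a median region of 7.42 and a telencephalic median of 7.78. *Ntrk3* was higher by 0.55 ± 0.07 (2.3e-09). All 4 genes overlapped with the arrays of other regions (3.64% of all probe sets did not), and 60.7% of all probe sets were called here. *Ngfr* fell by 0.19 (0.010), with -0.22 (adjusted p = 0.054) without replicate 1 and -0.17 (0.14) without replicate 2 of the cerebellar regions. Among regions of 1 sampling period the differences were 0.45 for *Bdnf*, -0.52 for *Ntrk2*, 0.49 for *Ntrk3* and -0.32 for *Ngfr*.

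In the hypothalamus, ME had the most *Ntrk2* and little *Bdnf* on the main probe sets. On other *Ntrk2* probe sets another hypothalamic region was highest: DM on 1458622_at and 1435305_at, the medial preoptic area on 1437560_at, Arc on 1420837_at and SO on 1444121_at. On the main probe set the 2 *Ntrk2* arrays of ME (12.79 and 13.07) were above the other 22 hypothalamic arrays, which ran from 11.73 over 12.15 to 12.61. The difference was 0.80 ± 0.07 (SE, limma, adjusted p = 2.0e-13). Of all probe sets 7.83% did not overlap and 35.4% were called. *Bdnf* fell by 0.44 (4.8e-04), with -1.73 (1.9e-12) on the other probe set, but -0.31 (adjusted p = 0.11) on the main one without replicate 2 of ME. *Ntrk3* fell by 0.27 (0.035), a call lost without either array of ME (-0.19 with adjusted p = 0.37 and -0.36 with 0.068) and without either array set of the other regions (0.065 and 0.059). *Ngfr* differed by 0.02 (0.87). Against the subparaventricular zone, sampled in the same period, the differences were 0.69 for *Ntrk2*, -0.49 for *Bdnf*, -0.41 for *Ntrk3* and 0.48 (5.5e-04) for *Ngfr*, so that *Ngfr* alone gained a call.

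On the main probe sets SCN, the circadian pacemaker, had more *Ntrk2* (12.54 and 12.44, difference 0.32, limma, adjusted p = 4.5e-04) and less *Ngfr* (7.37 and 7.61, -0.44, 1.9e-04) than the other hypothalamic regions, where 44.7% of all probe sets were called. Without replicate 1 of SCN neither was called (0.27 with adjusted p = 0.059 and -0.32 with 0.078), and against DM, of the same sampling period, the differences were 0.24 (0.095) and -0.45 (0.0090). On *Ntrk2* probe set 1437560_at SCN was instead the lowest of the 12 hypothalamic regions, with a mean of 10.34 against their median of 10.85. *Bdnf* was at -0.21 (0.096) and at -0.39 (0.047) against DM. In SCN 12 of 12 astrocyte and 10 of 10 oligodendrocyte markers were higher than in the other hypothalamic regions (median differences 0.48 and 2.34). Of all probe sets 19.1% were higher, and the part of these markers was not tested. VMH differed in *Ntrk2*, which fell by 0.39 (4.9e-05) while 21.1% of all probe sets were called and 8 of 10 oligodendrocyte and 7 of 8 leptomeningeal markers fell too (medians -0.99 and -1.04, 11.9% of all probe sets lower, their part not tested), but the difference was -0.08 (0.63) against regions of its own sampling period. *Bdnf* in VMH was at 0.19 (0.20) on the main probe set and higher by 1.60 ± 0.17 (1.4e-10) on the other, where the other 22 arrays ran from 5.97 over 7.54 to 9.64, and by 1.15 (2.3e-06) within its sampling period. *Ngfr* in VMH was at -0.05 (0.77), and fell by 0.38 (0.0050) within the period.

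The olfactory bulb had more *Ntrk2* and less *Bdnf* and *Ntrk3* than the other telencephalic regions. *Ntrk2* ran from 12.13 to 12.24 in its 4 arrays and from 11.06 over 11.44 to 12.11 in the other 30, with no overlap (6.59% of all probe sets), and the difference was 0.71 ± 0.05 (SE, limma, adjusted p = 3.6e-17). On 1458622_at the direction was the opposite (-0.27, 0.0032). In the olfactory bulb 11 of 12 astrocyte markers (median difference 0.60) and 7 of 8 leptomeningeal markers (1.10) were also higher than in the other telencephalic regions, against 24.2% of all probe sets, and their part was not tested. *Bdnf* fell by 0.28 (0.0013), with -0.86 (3.8e-08) on the other probe set. *Ntrk3* fell by 0.43 (2.5e-06), with -0.21 (0.057) against the ventral subiculum, CA1 and CA2/CA3, the regions of its sampling period. *Ngfr* fell by 0.16 (0.038), with no call without replicate 1 (-0.12, adjusted p = 0.33) or 2 (-0.21, 0.071) of the olfactory bulb and a difference of -0.00 within the period. Here 55% of all probe sets were called. Between the anterior and posterior spinal cord none of the 4 genes was called (adjusted p from 0.51 to 0.83) and 1.69% of all probe sets were; the 2 probe sets of *Bdnf* were at -0.23 and -0.42. Over all 12 comparisons 26 of the 48 values of the 4 genes were called, against 31.2% of such values over all probe sets. Several comparisons share regions, so their values are not independent.

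**Figure D4:**
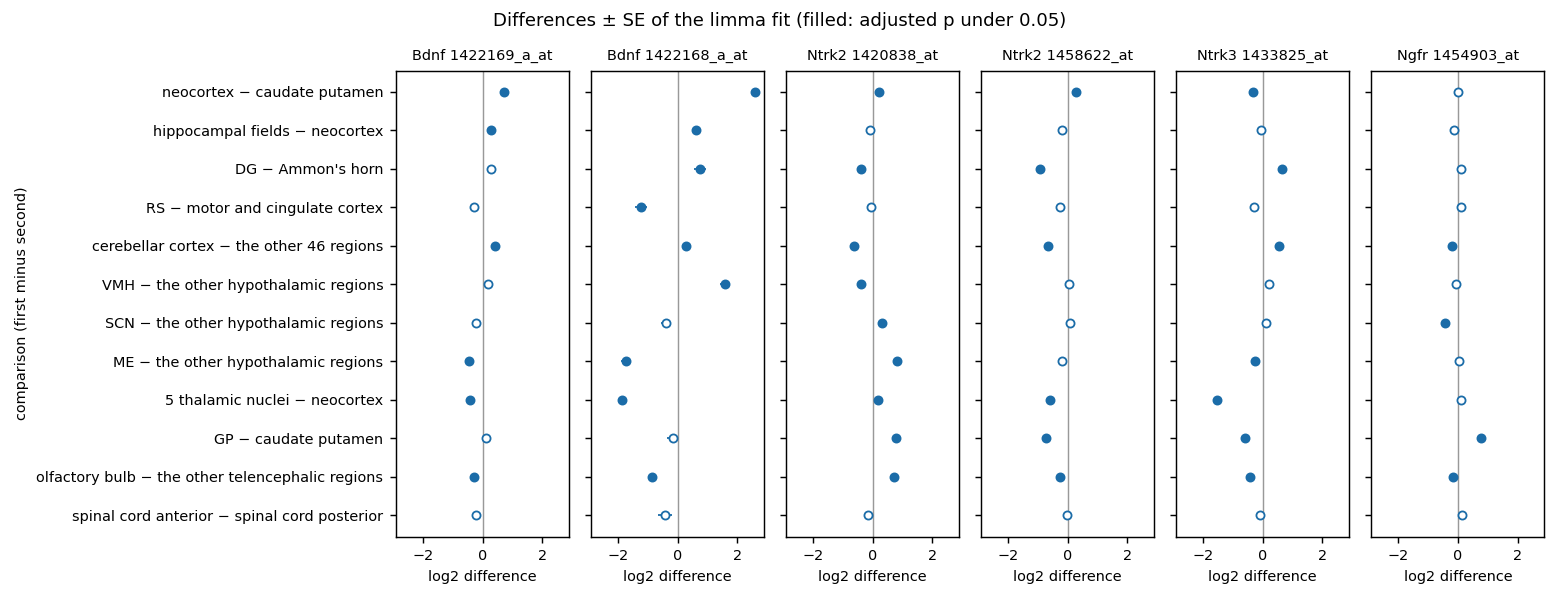
Difference in log2 level between the first- and second-named regions of 12 comparisons (rows) for 6 probe sets, both of *Bdnf*, *Ntrk2* 1420838_at and 1458622_at, *Ntrk3* 1433825_at and *Ngfr* 1454903_at. Points are limma estimates, bars are ± SE, and filled points have an adjusted p under 0.05; *Ntrk3* in thalamus against neocortex is at -1.53, and the 2 *Ntrk2* probe sets lie on opposite sides of 0 for GP and for the olfactory bulb.

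Other genes of the pathway came from a list of 75, of which 62 had a probe set of their own. Among them the ligand gene *Ntf5* (neurotrophin 4/5) varied little between regions, from 5.23 to 5.65. Of the receptors of the sortilin family, which bind pro-neurotrophins, *Sort1* spanned 2.14 log2 units with CA1 highest, and *Sorcs2* spanned 2.70 with Hb highest. *Lingo1* and *Rtn4r*, partners of p75NTR in the Nogo receptor complex, spanned 3.46 and 2.06. *Rtn4r* was highest in DG at 10.29, the region that also led *Bdnf*, and over 48 regions its r was 0.72 with *Bdnf* and -0.59 with *Ntrk2*. *Cadps2*, a dense-core vesicle priming factor that takes part in BDNF release, had the widest range of the list, 6.04 log2 units from 6.83 in Tu to 12.87 in Hb.

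Neocortex had 21 of the 62 higher and 9 lower than caudate putamen, a comparison with 15.5% of all probe sets higher and 14.3% lower. *Cadps2* was higher by 3.34, *Serpini1* (neuroserpin, an inhibitor of tissue plasminogen activator) by 2.63, *Lingo1* by 1.82 and *Rtn4r* by 1.38, while *Sorcs2* was lower (-1.23). Thalamus had 16 higher and 27 lower than neocortex (17% and 16.9% of all probe sets), with the median of the 62 at -0.10 against 0.01 over all probe sets. The difference was -3.16 for *Cadps2*, -2.27 for *Egr1*, -1.82 for *Homer1* and -1.71 for *Serpini1*. DG had 8 higher and 29 lower than Ammon's horn (11.8% and 15.3%), with medians of -0.22 and 0.02. Of the 8 activity-regulated genes listed as targets of Trk signalling 7 were lower in DG, among them *Arc* (-1.63), *Dusp6* (-1.49), *Egr1* (-1.26) and *Vgf* (-1.19). The same 8 genes had 7 lower in GP than in caudate putamen (14.1% of all probe sets) and 7 lower in thalamus than in neocortex (16.9%).

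Retrosplenial cortex had 1 of the 62 higher and 10 lower than motor and cingulate cortex (3.47% and 5.14% of all probe sets), and the hippocampal fields had 14 higher and 22 lower than neocortex (15.2% and 14.2%). Cerebellar cortex had 23 higher and 30 lower (25% and 35.7%), with *Cadps2* higher by 2.67 and *Vgf*, a neurotrophin-inducible secreted peptide precursor, at -2.33. In the hypothalamus VMH had 3 higher and 19 lower (9.21% and 11.9%), SCN 27 and 6 (19.1% and 25.6%) and ME 16 and 17 (17.7% and 17.7%). In SCN *Cadps2* was higher by 1.94, *Vgf* by 1.36, *Lingo1* by 1.29 and *Plat* (tissue plasminogen activator, which takes part in pro-BDNF cleavage) by 1.11. GP had 17 higher and 20 lower (13% and 14.1%), the olfactory bulb 30 and 19 (24.2% and 30.8%), with the Trk adaptor *Grb2* higher by 1.64, and the anterior spinal cord 1 and 2 (0.784% and 0.908%).

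The 2 groups of *Ntrk2* probe sets also stood in different relation to the lists of cell type markers. As a description over the 48 regional means, which share arrays, pools and normalization, the mean centred level of the ependymal list had r between 0.45 and 0.63 with the group of the main probe set and that of the neuron list between -0.53 and -0.38. The astrocyte list had r between 0.31 and 0.33 with this group, but between -0.55 and -0.52 with 1458622_at, 1437560_at and 1435305_at. The immediate early genes had r between -0.63 and -0.39 with the first group and between 0.49 and 0.56 with the second. *Bdnf* had r of 0.54 and 0.38 with the neuron list on its 2 probe sets, *Ntrk3* -0.43 with the oligodendrocyte list, and *Ngfr* 0.41 with the microglia and 0.39 with the cholinergic list.

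**Figure D5:**
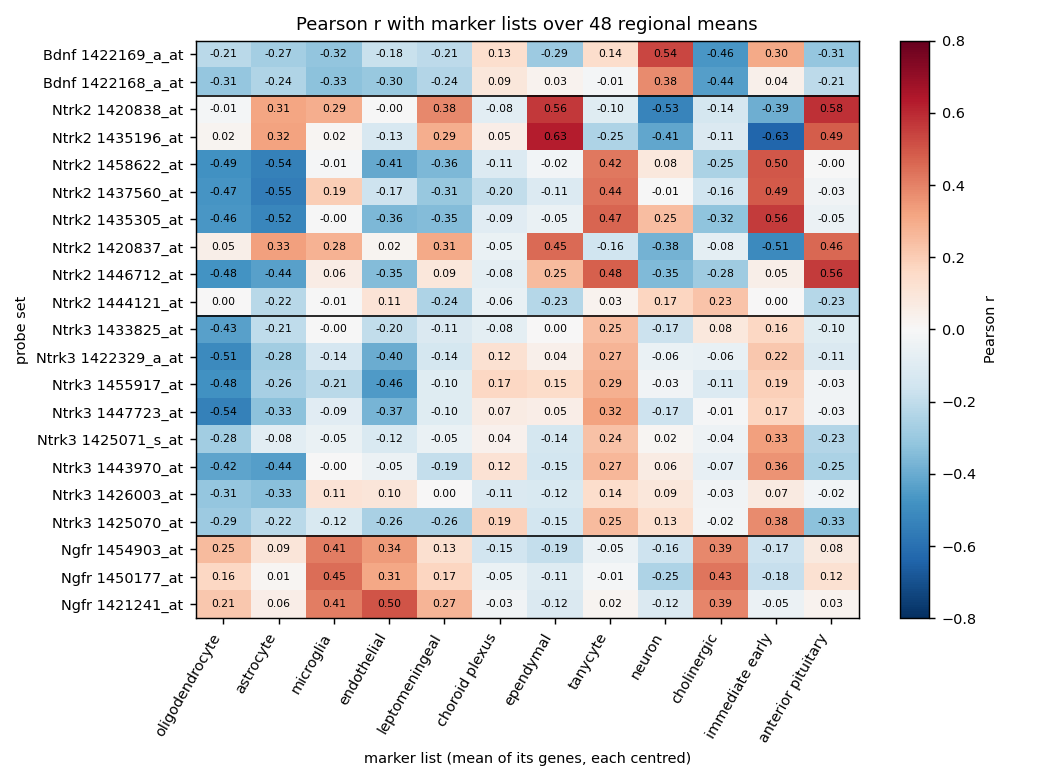
Pearson r over 48 regional means between each of the 21 probe sets (rows) and the mean centred log2 level of 12 lists of marker genes (columns). For the astrocyte list, *Ntrk2* 1420838_at has r of 0.31 and 1458622_at of -0.54.

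Between the members themselves *Bdnf* and *Ntrk2* had r of -0.48 over the 48 regions (Spearman rho -0.39) on the main probe sets, but of -0.18 with the other *Bdnf* probe set, and the sign turned with *Ntrk2* 1458622_at, 1437560_at and 1435305_at, where r was between 0.14 and 0.33 over both *Bdnf* probe sets. On the main probe sets r was, for *Bdnf* and *Ngfr*, -0.33 and, for *Bdnf* and *Ntrk3*, 0.11. The receptor genes had r from -0.18 to 0.04 with each other. Among 14447 genes, the patterns most like that of *Bdnf* by Pearson r over 48 regions were those of *Kcnj6* (0.80), *Neurod2* (0.77), *Gpr22* (0.73), *Sidt1* (0.72) and *Prdm8* (0.72). For *Ntrk2* they were *Gusb* (0.87), *Apoc1* (0.86), *Srebf1* (0.83), *Atic* (0.83) and *As3mt* (0.83), and for *Ntrk3* *Kbtbd11* (0.82), *Asphd2* (0.81), *Wscd2* (0.78), *Tmem181a* (0.76) and *Pias1* (0.73). *Ngfr* had no gene above 0.70, its nearest being *Lrrk1* (0.70), *Sry* (0.64, on a probe set of the kind that can read several genes), *BC037704* (0.64), *Nudt7* (0.63) and *Tedc1* (0.63).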

How the data were processed

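The adult mouse central nervous system was profiled by the authors on Affymetrix GeneChip Mouse Genome arrays, 102 in all, 2 for each of 51 regions. The authors deposited log2 values normalized by RMA, per the labels and the submitters' processing notes. Leaving out 64 control probe sets, 45037 were tested on the 96 arrays of 48 regions. Genes were named from the platform annotation, using probe sets that name 1 gene, and the probe set with the highest mean stood for a gene. Levels were compared in limma 3.58.1 (R 4.3.3), where each region had 1 coefficient, with p-values adjusted within a comparison across every probe set (Benjamini-Hochberg) and a threshold of 0.05. Residual degrees of freedom were 48 and the median residual SD was 0.12. Arrays give no counts, so that their number limits the precision. Python 3.11.15, numpy 2.4.6, pandas 2.3.3 and matplotlib 3.10.9 were used for tables and plots, and the fit was tested on simulated data. The members, comparisons and gene lists were chosen with earlier results of these data known. Members and pathway genes are named whole or by the largest differences, and genes of similar pattern are the 5 with the highest r among genes whose highest regional mean reached 7. Marker lists are those of oligodendrocytes, astrocytes, microglia, endothelium, leptomeninges, choroid plexus, ependyma, tanycytes, neurons, cholinergic neurons, anterior pituitary and immediate early genes. Alternatives were cyclic loess, quantile normalization, a filter at 7, a variance trend with robust estimation, the replicate number as a block, the next probe set of each gene, 4 sampling periods grouped from the sampling dates the study lists, and leaving out arrays. Leaving out arrays of the second-named regions was chosen after seeing the data. Promoter windows came from RefSeq.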

Additional observations from a re-analysis of the deposited data

How the results depend on the processing

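Of 516 alternative values of the 48 differences, 472 kept direction and side of the threshold, 32 lost the call, 10 gained one and 2 turned sign. Both of the latter were *Ntrk3* in the hippocampal fields against neocortex, with 0.57 (limma, adjusted p = 0.0018) in the same sampling period and 0.49 (0.0020) on the next probe set, against -0.07. The same-period value compares DG with retrosplenial cortex alone, so the regions differ as well as the period. The filter at 7 and the variance trend with robust estimation changed no call of the 48, cyclic loess lost 3, and quantile normalization gained 2 and lost 1.

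The replicate number as a block changed no call: the 48 values kept direction and threshold, and *Bdnf* in neocortex against caudate putamen stayed at 0.72. Pairing was checked by the correlation of deviations between arrays of the same number, which was over 0.1 in 282 of 1128 pairs of regions (median 0.0072) and in 18 of the 35 pairs sampled on the same days, with 0.37 for the anterior and posterior spinal cord. Since it was not over 0.1 in every pair, the block was kept as an alternative. A block by replicate number over all regions cannot take up deviations shared only by regions sampled on the same days. Its unchanged calls therefore do not speak to such deviations, which were not modelled.

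On the next probe set *Bdnf* was above in 17 and below in 19 regions, and *Ngfr* in 3 and 3, against 11, 12, 6 and 8. Without replicate 1 or 2, *Bdnf* was above in 8 to 9 and below in 5 to 7 regions, *Ntrk2* above in 11 to 12 and below in 11 to 12 (against 13 and 17), *Ntrk3* above in 9 to 10 and below in 7 to 8 (13 and 10), and *Ngfr* above in 3 to 4 and below in 3. Of the 4 genes, leaving out arrays gave 1 to 3 calls in neocortex against caudate putamen, 0 to 2 in the hippocampal fields, 2 in DG, 0 in retrosplenial cortex, 3 to 4 in cerebellar cortex, 1 in VMH, 0 to 2 in SCN, 1 to 2 in ME, 2 to 3 in thalamus, 3 in GP, 3 to 4 in the olfactory bulb and 0 in the spinal cord. In the same sampling period the hippocampal comparison, then DG against retrosplenial cortex alone, had 3 calls instead of 1. The olfactory bulb, then against the ventral subiculum, CA1 and CA2/CA3 alone, had 2 instead of 4. The next probe set gave 2 calls in the hippocampal fields, 1 in retrosplenial cortex instead of 0, and 2 in VMH instead of 1, as did quantile normalization in VMH. The cause of these changes was not tested.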

Other observations

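The retina, pituitary and pineal were left out of the comparisons, and their levels are given here without a test. The retina arrays held the pituitary hormone gene *Gh* at 14.77 and 14.62, where the highest of the 96 arrays of the 48 regions was at 9.11. The tissue of the retina arrays is therefore uncertain, and that of the pituitary arrays was not checked here. The levels of both are given below by label only, and the source of the *Gh* signal was not tested. The *Ntrk2* probe sets 1458622_at, 1437560_at and 1435305_at were lower in the arrays labelled retina, pituitary and pineal than on any array of the 48 regions. On 1458622_at the pineal read 5.71 and 5.98, the pituitary 6.53 and 6.01 and the retina 6.38 and 6.13, whereas the lowest of the 96 other arrays was at 9.98. On 1435305_at the 6 arrays ran from 5.95 to 6.42 against a lowest value of 8.59 elsewhere. The gap was smaller on 1437560_at, where the pituitary read 8.75 and 9.02, the pineal 8.19 and 8.43 and the retina 8.30 and 8.33 against a lowest value of 9.47. The main *Ntrk2* probe set was less far off, with 10.64 and 10.78 in the pineal, a mean of 10.95 in the retina and 11.70 and 11.73 in the pituitary, where the lowest of the 96 arrays was at 10.98.

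*Ntrk3* read 7.44 and 7.43 in the pineal, below all 96 arrays (lowest 8.28), 9.27 and 9.16 in the pituitary and 9.79 and 9.70 in the retina. *Bdnf* read 7.61 and 7.90 in the pineal, 8.16 and 8.34 in the pituitary and 7.82 and 7.69 in the retina. *Ngfr* read 8.00 and 8.24 in the retina, 7.33 and 7.55 in the pituitary and 7.73 and 7.82 in the pineal, all within the range of the 48 regions.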
